A study of Mus musculus with 4 samples.

Results

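The genes Saa1, Saa2, Saa3, Lrg1, Hp, Lbp and Lcn2, which encode serum amyloids and other acute-phase proteins, were described on every array of the series. They were chosen by name with earlier results of these data known, so their counts beside the share of all genes are a description. The platform's annotation gave them 9 of the 45101 probe sets of the array, each assigned to 1 gene. All 7 were among the 12189 genes compared. Affymetrix arrays were run on RNA of the distal colon of 4 mice, with 1 array for each of 4 groups. The groups were Adamts12 WT untreated, Adamts12 KO untreated, Adamts12 WT given 2% DSS and Adamts12 KO given 2% DSS. Adamts12 encodes a secreted metalloprotease, and KO mice lacked it. DSS (dextran sodium sulfate) is a polymer that injures the colonic epithelium when it is drunk, and causes colitis. It was given for 7 days per the series text and for 8 days per the treatment protocol, followed by 1 day without it, in mice that were 8 to 10 weeks old at the start. The labels give neither the strain nor the part of Adamts12 that was removed, and each group is a single mouse, so no difference between groups could be checked against replicates, and the number of arrays limits the precision.

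Acute-phase proteins are plasma proteins that the liver releases in quantity during infection or injury. Interleukin-6 acts on their genes through the transcription factor STAT3, and interleukin-1 through NF-kappaB and the C/EBP factors. Several of the genes are also used outside the liver: colonic epithelium makes serum amyloids and lipocalin-2, and neutrophils store haptoglobin, lipocalin-2 and leucine-rich alpha-2-glycoprotein in their granules. Lipocalin-2 in stool is a common readout of colitis in mice.

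The brighter Adamts12 probe set (1439827_at) lay at 2.18 (log2) on the untreated WT array and at 2.18 on the WT DSS array, and at 1.42 and 1.41 on the KO arrays, a dim signal that was lower in KO as labelled. The second one, 1446666_at, had values from 0.71 to 0.97. The 9 Y-linked probe sets reached at most 1.39 on the log2 scale, while Xist was bright on all arrays, and values up to that level were taken as background. All 9 acute-phase probe sets lay above this level on each array. The array's 3′ minus 5′ control difference, a sign of RNA quality, lay between 0.16 and 0.26 for Gapdh and between 0.64 and 0.83 for beta-actin, highest on the KO DSS array in each case. All 11 epithelial markers were compared, with the epithelial adhesion gene Epcam between 10.98 and 11.51. Genes of gut position differed between the arrays, and their values are given beside Saa1 and Saa2. The untreated KO array had the lowest summed posterior Hox level and the highest summed small intestine level.

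**Figure D1:**
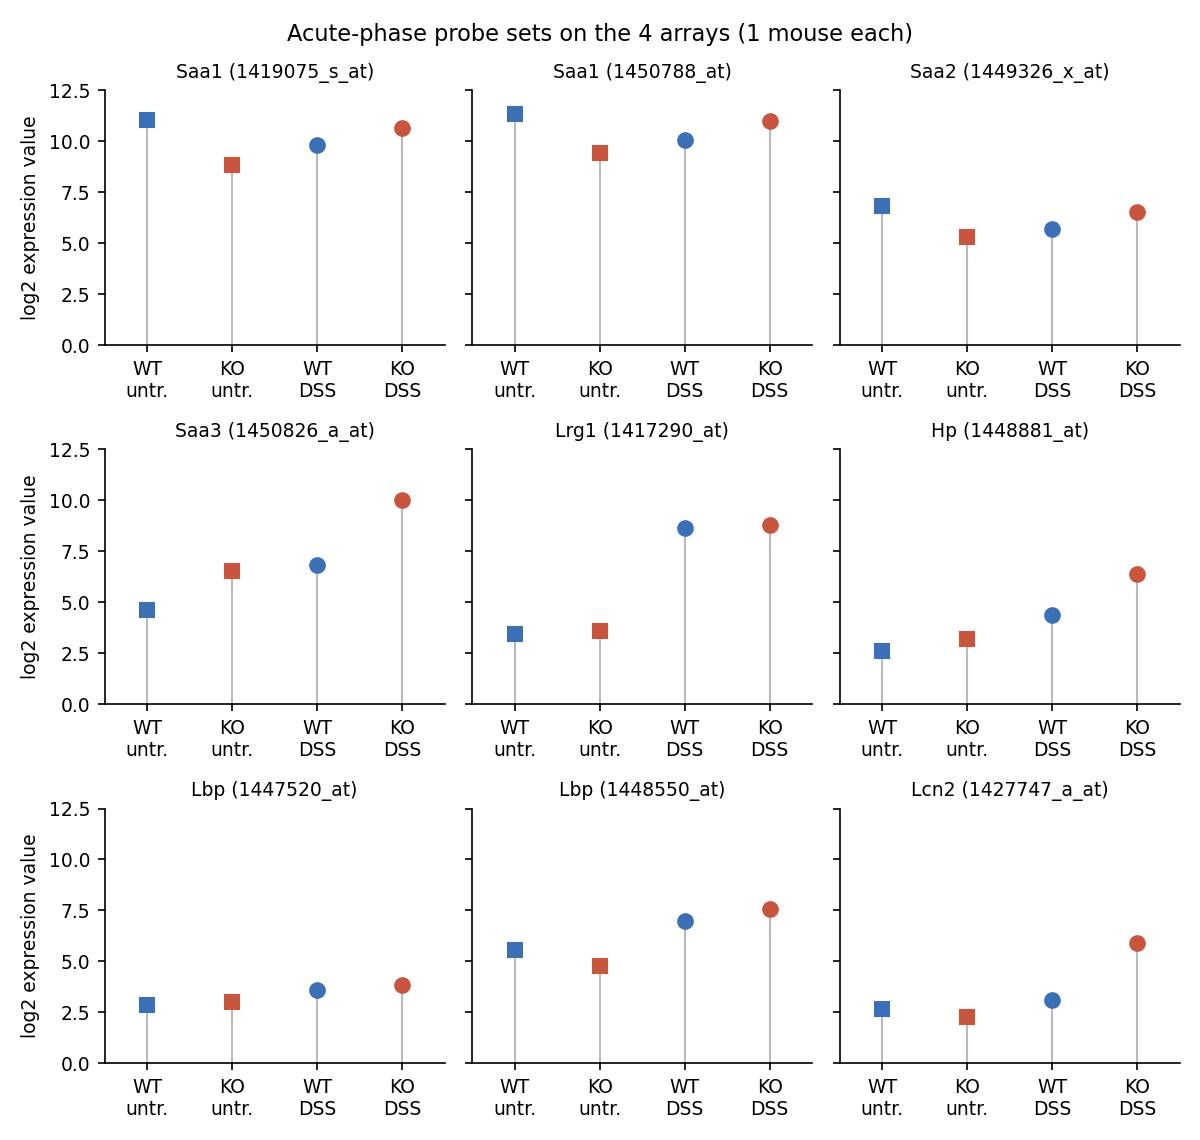
Log2 expression value (vertical axis) of each of the 9 acute-phase probe sets on the 4 arrays, with WT in blue, KO in red, untreated as squares and DSS as circles; each point is 1 mouse, so there are no error bars. Lrg1 lies at 3.43 and 3.60 untreated and at 8.65 and 8.78 with DSS, while the Saa1 and Saa2 probe sets are highest on the untreated WT array and lowest on the untreated KO array.

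The first question was how the acute-phase genes differed between the DSS-treated and the untreated colon. Of the 7 genes, 4 had at least 2-fold higher values with DSS in both genotypes, namely Lrg1, Saa3, Hp and Lbp, where 2.48% of all genes compared were. Lcn2 was 2-fold higher or more in KO only, and Saa1 and Saa2 were at least 2-fold lower with DSS in WT and higher in KO. In WT 4 genes were higher and 2 lower, against 5.82% and 4.96% of all genes. In KO all 7 were higher and 0 lower, against 10.8% and 6.68% of all genes. The median log2 difference of the 7 was 1.39 in WT and 3.19 in KO, and that of all genes was -0.01 and 0.06. Both DSS arrays lay above both untreated arrays for 5 of the 7 genes, all but Saa1 and Saa2, and for 26.4% of all genes. In bulk tissue, fewer cells of a type and less RNA per cell cannot be told apart.

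Lrg1 encodes leucine-rich alpha-2-glycoprotein, a secreted protein that modulates signalling by transforming growth factor beta. Its probe set (1417290_at) had log2 values of 3.43 on the untreated WT array, 3.60 on the untreated KO array, 8.65 on the WT DSS array and 8.78 on the KO DSS array. The arrays thus fell into an untreated and a DSS pair, and within each pair WT and KO lay within 0.17 of each other. On the deposited scale this is a 37.3-fold difference in WT and a 36.3-fold difference in KO. Lrg1 had the third highest DSS difference of all genes in WT and ranked 16 of 12189 in KO. An additive limma model with genotype as covariate, fitted to the 4 arrays, gave a DSS difference of 5.20 (SE 0.23), with an unadjusted p of 4.15e-05 and a Benjamini-Hochberg adjusted p of 0.364 over all genes. That model has 1 residual degree of freedom and counts a DSS effect that is unequal in WT and KO as error. It called 0 of 12189 genes at the adjusted threshold of 0.05, while 1437 (11.8%) had an unadjusted p under 0.05.

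Limma's adjusted p for Lrg1 was 0.0347 after quantile normalization of the arrays and 0.0336 without the covariate. These were the settings in which the adjusted p fell under 0.05, and the range over the 12 alternatives was 0.0336 to 0.662. The difference itself lay between 5.12 and 5.29 under all of them.

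Saa3 encodes the serum amyloid A of inflamed tissues, made by macrophages, adipocytes and epithelium in the mouse. Its probe set (1450826_a_at) had log2 values of 4.63 on the untreated WT array, 6.52 on the untreated KO array, 6.83 on the WT DSS array and 10.04 on the KO DSS array. The KO DSS array was the highest by a wide margin, and the untreated KO array lay just below the WT DSS array. The DSS difference was 2.20 in WT and 3.52 in KO. Over both genotypes it was 2.86 (SE 0.41), and limma gave an unadjusted p of 0.0031 and an adjusted p of 0.364. Set against the untreated KO array, the WT DSS array was higher by 0.31, so that the call of 2-fold in WT rested on the untreated WT array.

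Hp encodes haptoglobin, which binds free haemoglobin. Its probe set (1448881_at) had log2 values of 2.60 on the untreated WT array, 3.21 on the untreated KO array, 4.37 on the WT DSS array and 6.40 on the KO DSS array. The DSS arrays were the higher pair, and KO lay above WT within each treatment. The DSS difference was 1.77 in WT and 3.19 in KO. In limma's model it was 2.48 (SE 0.45), with an unadjusted p of 0.0070 and an adjusted p of 0.364. Hp lay above the array's median on the DSS arrays only, so its place among the compared genes came from the arrays on which it was high.

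Lbp encodes lipopolysaccharide-binding protein, which hands bacterial lipopolysaccharide to CD14. Its brighter probe set (1448550_at) had log2 values of 5.57 on the untreated WT array, 4.79 on the untreated KO array, 6.96 on the WT DSS array and 7.56 on the KO DSS array. The KO arrays were thus the lowest and the highest. The DSS difference was 1.39 in WT and 2.77 in KO, and 2.08 (SE 0.43) over both genotypes, with an unadjusted p of 0.010 and an adjusted p of 0.364 by limma. The other Lbp probe set (1447520_at) had values of 2.84, 3.01, 3.59 and 3.83 on the same arrays in the same order. It was higher with DSS by 0.75 in WT and by 0.82 in KO, under 2-fold in each, and did not show the lower value on the untreated KO array. This dimmer probe set lay above the array's median on the DSS arrays only. The transcript named for it is not a RefSeq one, unlike that of the brighter probe set.

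Lcn2 encodes lipocalin-2, which withholds iron from bacteria by binding their siderophores. Its probe set (1427747_a_at) had log2 values of 2.64 on the untreated WT array, 2.28 on the untreated KO array, 3.10 on the WT DSS array and 5.92 on the KO DSS array. Only the KO DSS array lay above its array's median, and Lcn2 entered the compared genes through that array alone. The DSS difference was 0.46 in WT, where it ranked 2103 of 12189 genes, and 3.64 in KO, where it ranked 45. Over both genotypes it was 2.05 (SE 0.89), with an unadjusted p of 0.088 and an adjusted p of 0.486 by limma.

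**Figure D2:**
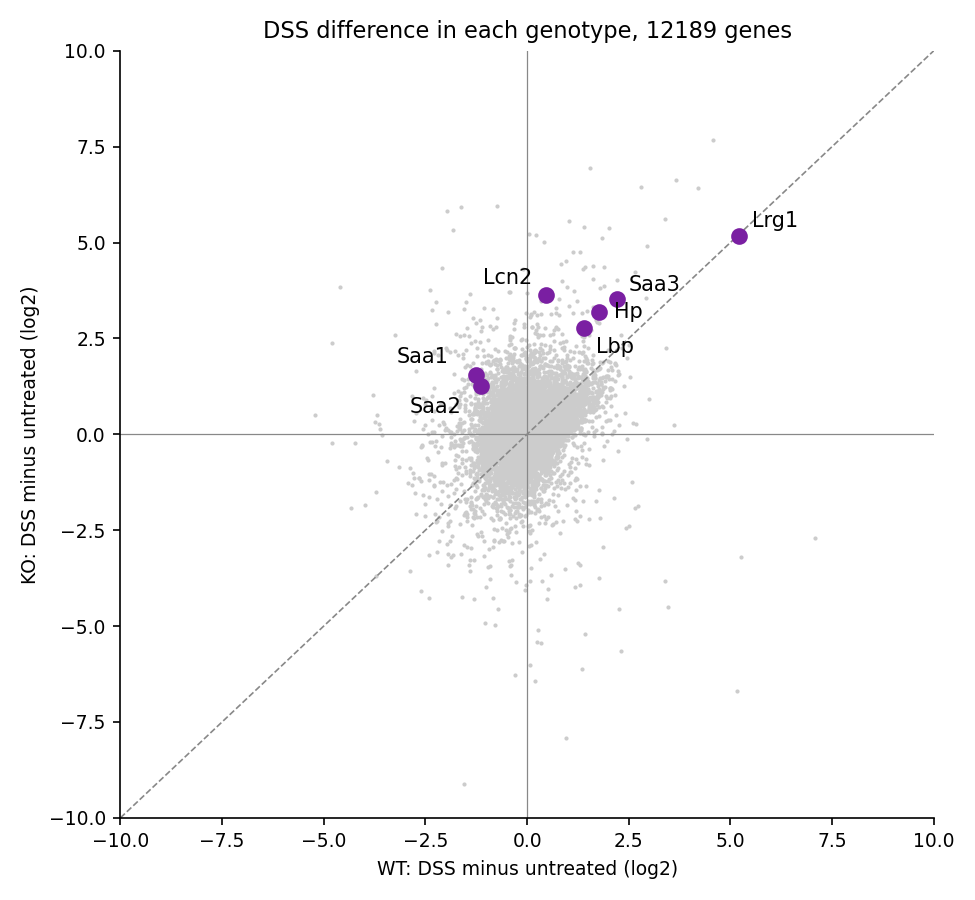
DSS minus untreated log2 difference in WT (horizontal axis) and in KO (vertical axis) for 12189 genes in grey and the 7 acute-phase genes in purple; the dashed line marks equal differences. Lrg1 lies on the line at 5.22 and 5.18, the other 6 genes lie above it, and Saa1 and Saa2 lie left of zero.

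Saa1 and Saa2 encode the circulating serum amyloids A1 and A2, apolipoproteins that bind retinol and are made by liver and by intestinal epithelium. Their probe sets followed 1 pattern over the arrays, which differed from that of the other acute-phase genes. The brighter Saa1 probe set (1450788_at) had log2 values of 11.34 on the untreated WT array, 9.44 on the untreated KO array, 10.08 on the WT DSS array and 10.98 on the KO DSS array. The other (1419075_s_at) had values of 11.04, 8.84, 9.84 and 10.66 on those arrays. The Saa2 probe set (1449326_x_at) had values of 6.85, 5.30, 5.71 and 6.56. On all 3 probe sets the untreated WT array was the highest, the KO DSS array came next, then the WT DSS array, and the untreated KO array was the lowest.

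DSS minus untreated was -1.26 in WT and 1.54 in KO for Saa1, and -1.14 and 1.26 for Saa2. The same pattern, at least 2-fold lower in WT and at least 2-fold higher in KO, was seen for 0.804% of all genes. Over both genotypes the DSS difference was 0.14 (SE 0.76) for Saa1 and 0.06 (SE 0.67) for Saa2, with adjusted p-values of 0.961 and 0.981 by limma. Against the untreated array of the other genotype, the signs turned. The KO DSS array lay below the untreated WT array, at -0.36 for Saa1 and -0.29 for Saa2, and the WT DSS array lay above the untreated KO array, at 0.64 and 0.41. The direction of the DSS difference in each genotype therefore rested on which untreated array was used.

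The probe sets of Saa1 and Saa2 could not be fully assigned to 1 gene. The suffixes of 1419075_s_at and 1449326_x_at mark probe sets with possible matches to more than 1 transcript. The annotation names 1419075_s_at as Saa1, but the transcript accession given beside it is that of Saa2 in RefSeq, the same accession as for 1449326_x_at. The probe set 1450788_at carries a Saa1 accession. The agreement between Saa1 and Saa2 is therefore not a result on separate genes.

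In the gene order of RefSeq (GRCm38.p6), Saa3, Saa4, Saa1 and Saa2 lie in that order in a cluster on chromosome 7, and Saa1 and Saa2 are neighbours read from opposite strands. The windows from 250 bases before to 50 bases after the start site are shown for the serum amyloid genes, because the probe sets of Saa1 and Saa2 shared a pattern over the arrays that the one of their cluster neighbour Saa3 did not. That shared pattern may come from probe sets that match both genes, and a link between windows and pattern was not tested. They are written 5′ to 3′ on the gene's strand, with the sequences from RefSeq, and capitals mark matches to the C/EBP motif TTGCNNAA on either strand. The Saa1 window is chr7:46742931-46743230, minus strand, the Saa2 window chr7:46751583-46751882, plus strand, and the Saa3 window chr7:46715627-46715926, minus strand.
Saa1: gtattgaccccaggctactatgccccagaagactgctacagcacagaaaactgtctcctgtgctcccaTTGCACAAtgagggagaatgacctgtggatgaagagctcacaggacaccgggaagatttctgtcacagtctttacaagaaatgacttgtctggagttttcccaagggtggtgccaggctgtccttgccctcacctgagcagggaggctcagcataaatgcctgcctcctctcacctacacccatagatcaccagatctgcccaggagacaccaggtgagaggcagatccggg
Saa2: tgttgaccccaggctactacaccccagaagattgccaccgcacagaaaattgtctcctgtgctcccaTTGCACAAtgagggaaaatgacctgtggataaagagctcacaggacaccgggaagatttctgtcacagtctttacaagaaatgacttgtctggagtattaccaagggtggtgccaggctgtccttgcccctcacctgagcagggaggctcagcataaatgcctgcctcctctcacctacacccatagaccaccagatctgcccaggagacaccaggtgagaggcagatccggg
Saa3: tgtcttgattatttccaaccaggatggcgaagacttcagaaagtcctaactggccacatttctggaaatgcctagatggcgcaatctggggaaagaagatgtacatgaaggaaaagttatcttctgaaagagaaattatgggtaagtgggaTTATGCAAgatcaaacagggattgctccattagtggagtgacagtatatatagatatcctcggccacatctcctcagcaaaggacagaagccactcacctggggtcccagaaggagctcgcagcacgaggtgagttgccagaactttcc

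The Saa1 and Saa2 windows were identical at 287 of 301 aligned positions (95.3%), and the Saa1 and Saa3 windows at 49.4%, against 46.6% for Saa1 with the unlinked Lrg1 and 51.4% for Saa1 with the unlinked Lcn2. Promoter windows were found for 5 of the 7 genes, the others being Lrg1 (chr17:56121897-56122196, minus strand) and Lcn2 (chr2:32387690-32387989, minus strand). A C/EBP match began 182 bases before the start site in Saa1, 183 bases before it in Saa2 and 99 bases before it in Saa3. Lcn2 held TTGCTCAA, 216 bases before its start site, and the Lrg1 window held none. The motif was present in 10.8% of 32851 promoter windows of the same length. No match to the STAT motif TTCNNNGAA (8.30% of windows) or to the NF-kappaB consensus (8.46%) lay in the 5 windows, and no match overlapped another. A match is a description of letters in these windows and says nothing of a factor's binding.

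Genes of gut position differed between the untreated arrays alongside Saa1 and Saa2. Of 7 posterior Hox genes compared, out of 9 with a probe set, 6 were at least 2-fold lower and 0 higher in the untreated KO than in the untreated WT colon. Of all genes, 5.99% were lower and 3.43% higher there. Hoxb13, a homeobox gene of the distal colon, had values of 9.47 on the untreated WT array, 2.48 on the untreated KO array, 7.84 on the WT DSS array and 8.40 on the KO DSS array. The summed posterior Hox level, as log2, was 10.36, 6.44, 8.49 and 9.22 on these arrays. Of its 7 genes, Hoxb13 and Hoxd13 had the order of Saa1, and the other 5 did not. Of 6 small intestine genes compared, out of 11 with a probe set, 5 were at least 2-fold higher in the untreated KO colon, against 3.43% of all genes. Slc10a2, among them, entered the compared genes through the untreated KO array alone, at 4.64. Hoxd11 in the Hox count entered through the untreated WT array alone, at 4.56. The counts and summed levels of both lists were therefore partly set by the filter. The small intestine genes left out differed by 0.76 or less between the untreated arrays. The enterocyte gene Fabp2, which binds fatty acids, was at 6.72, 10.62, 8.07 and 4.51, and the summed level of the list at 7.24, 11.03, 8.54 and 6.19. The part of gut position in the Saa1 and Saa2 values was not tested.

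The second question was whether the acute-phase genes differed between KO and WT without DSS. Saa3 was higher in KO by 1.89, while Saa1 and Saa2 were lower by -1.90 and -1.55. These were the 3 of 7 genes at least 2-fold apart, 1 higher and 2 lower, against 3.43% and 5.99% of all genes. The 2 lower, Saa1 and Saa2, may be a shared signal. Lbp (-0.78), Hp (0.61), Lcn2 (-0.36) and Lrg1 (0.17) were under 2-fold apart. The median of the 7 was -0.36, and that of all genes -0.01. The serum amyloid genes thus differed in opposite directions between the same pair of arrays.

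The third question was whether KO and WT differed after DSS. Saa3, Lcn2 and Hp were at least 2-fold higher in KO, by 3.21, 2.82 and 2.03, and none of the 7 was 2-fold lower, against 4.22% and 1.21% of all genes. Saa1 (0.90), Saa2 (0.85), Lbp (0.60) and Lrg1 (0.13) were higher by less than 2-fold. The median of the 7 was 0.90, and that of all genes -0.02. Saa3 had the rank 15 and Lcn2 the rank 19 of 12189 genes for this difference. Over both treatments, limma's KO minus WT difference was 2.55 (SE 0.41) for Saa3, with an unadjusted p of 0.0046, and 1.32 (SE 0.45) for Hp, with an unadjusted p of 0.049. Without the treatment covariate, 0 members had an unadjusted p under 0.05. Without the KO DSS array as well, the difference was 0.79 for Saa3 and -0.275 for Hp, and without the untreated KO array it was 4.31 and 2.915. Leaving out an array without the covariate unbalances the treatments between KO and WT, so these values mix the DSS and the genotype difference. Hp was higher in KO in each treatment, by 0.61 without DSS and 2.03 with it. Of all genes, 0.665% were higher and 0.771% lower at an unadjusted p under 0.05, 175 genes (1.44%) in all. The adjusted p was 1.00 for every one of the 7 genes, and 0 of 12189 genes passed after adjustment.

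**Figure D3:**
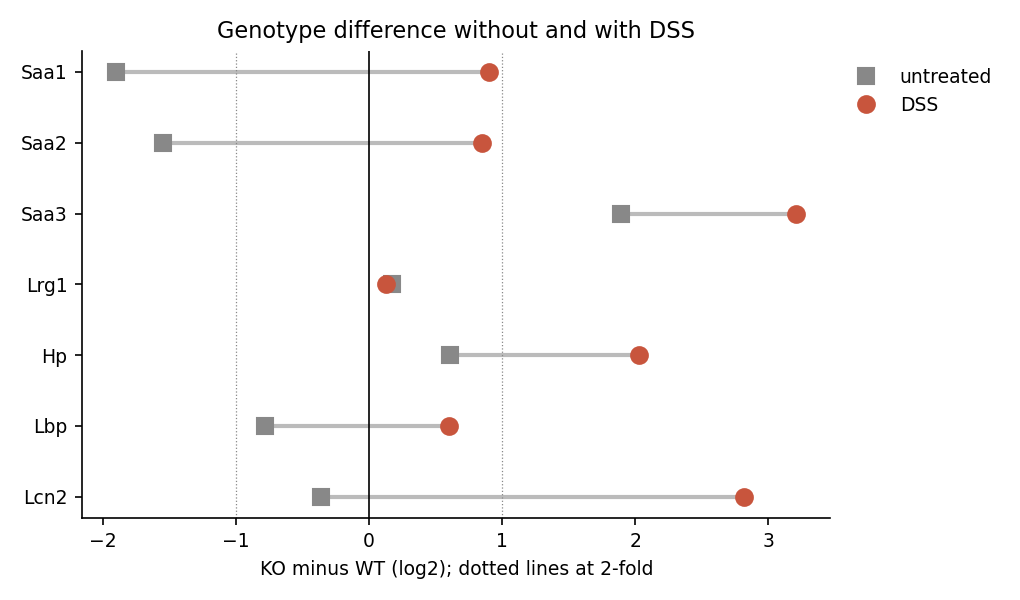
KO minus WT log2 difference (horizontal axis) of the 7 acute-phase genes, untreated as grey squares and with DSS as red circles; each point is the difference of 1 array from 1 array, and dotted lines mark 2-fold. Saa1, Saa2, Lbp and Lcn2 lie below zero untreated and above it with DSS, Saa3 and Hp lie above zero in both, and the 2 points of Lrg1 nearly coincide.

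The DSS difference was at least 2-fold larger in KO than in WT for 6 of the 7 genes, and for 12.3% of all genes. Among the 6, Saa1 and Saa2 may be a shared signal. The excess in KO was 3.18 for Lcn2, 2.80 for Saa1, 2.40 for Saa2, 1.42 for Hp, 1.38 for Lbp and 1.32 for Saa3, and it was -0.04 for Lrg1. With 4 arrays this difference leaves no degree of freedom for a test. This excess equals the KO minus WT difference with DSS less that without DSS. For Lcn2 the larger term was the difference with DSS (2.82, against -0.36 without), and for Saa1 it was the difference without DSS (-1.90, against 0.90 with). With the mean over the brighter and the dimmer Lbp probe set, the excess of Lbp was 0.73, under 2-fold.

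The 7 genes did not share 1 pattern. After each gene's mean was taken off, the root mean square distance over the 4 arrays was 0.13 on the log2 scale between Saa1 and Saa2, 0.49 between Hp and Lcn2 and 0.64 between Saa3 and Hp. It was largest between Lrg1 and either Saa1 or Saa2, at 2.65 for each. Among all compared genes with a name of their own, the nearest to Saa1 by this distance were Tmem64 (0.033), Rnf144b (0.083) and Slc25a12 (0.085), and to Saa2 Cryab (0.041), Gas1 (0.045) and Slc25a12 (0.062). The nearest to Hp were Timp1 (0.14), Cers3 (0.25) and Il1b (0.26), to Lbp Plaur (0.056), Dipk1b (0.091) and Phlda2 (0.14), and to Lcn2 Clec4e (0.14), Il11 (0.19) and Aldh1a3 (0.21). Saa3 had no close match, with Chil3 (0.64), Hp (0.64) and Selp (0.69) the nearest, nor did Lrg1, with Cxcl2 (0.73), Ereg (0.83) and S100a8 (0.84). These distances rest on 4 values per gene and are given as a description.

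Other plasma acute-phase genes were mostly dim in the colon. Of 21 with a probe set, 7 were compared and 14 lay at or below the array's median on all arrays, among them Orm1, Orm2, Crp, the fibrinogen genes Fga, Fgb and Fgg, and Saa4, which lies in the serum amyloid cluster and had values between 2.34 and 2.53. With DSS in WT, the metallothionein genes Mt1 and Mt2 were higher by 1.61 and 2.34, and Hamp, the iron hormone hepcidin, was lower by -1.90. That made 2 of the 7 higher and 1 lower by 2-fold or more, against 5.82% and 4.96% of all genes. In KO, the protease inhibitor gene Serpina3n was higher by 1.88, the copper carrier gene Cp by 1.85 and Mt2 by 2.26. There 3 of the 7 were thus 2-fold higher and 0 were 2-fold lower, against 10.8% and 6.68% of all genes. Mt2 had values of 6.37 and 7.58 on the untreated WT and KO arrays and of 8.71 and 9.84 on the WT and KO DSS arrays, so that the genotypes differed alike in each treatment. The medians were 0.15 in WT and 0.84 in KO.

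Cytokines that induce acute-phase genes had a higher median DSS difference in KO than in WT. Of 6 compared, out of 8 with a probe set, Il1b (1.63) and Lif (1.05) were at least 2-fold higher in WT, against 5.82% of all genes. In KO the 5 were Il1b (3.31), Il11 (3.30), Lif (1.32), Tnf (1.11) and Il6, against 10.8% of all genes. In either genotype 0 were 2-fold lower, against 4.96% of all genes in WT and 6.68% in KO. Il6 was at background on 3 arrays and at 6.28 on the KO DSS array, so it was higher there by at least 4.89, and it was compared only because of that array. The medians were 0.53 and 2.31.

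Receptors and kinases of these cytokines differed less. Of 14 compared, 0 were at least 2-fold higher in WT and 5 in KO, against 5.82% and 10.8% of all genes. The 5 were Osmr (2.61), the shared interleukin-6 family receptor subunit Il6st (1.74), Il1r1 (1.34), Lifr (1.31) and Tnfrsf1a (1.00). Il22ra2, a soluble receptor that captures interleukin-22, was lower by -1.79 in WT and -1.18 in KO. The medians were -0.18 in WT and 0.51 in KO.

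Among 12 transcription factors and feedback inhibitors compared, Socs3, the inhibitor induced by STAT3, had the largest difference. It had values of 5.73 on the untreated WT array, 7.07 on the untreated KO array, 8.24 on the WT DSS array and 9.40 on the KO DSS array, a DSS difference of 2.51 in WT and 2.33 in KO. Limma gave it an unadjusted p of 0.00076 and an adjusted p of 0.364. The other genes at least 2-fold higher in WT were Cebpb (1.14) and Bcl3 (1.10). In KO they were Cebpd (1.91), Cebpb (1.58), Nfkbiz (1.38) and Tnfaip3 (1.35), while Cebpa was lower by -1.05. Stat3 itself differed by 0.26 and 0.61. Of all genes, 5.82% were at least 2-fold higher in WT and 10.8% in KO. The medians of the list were 0.16 in WT and 0.88 in KO.

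The receptors and partners of the acute-phase proteins were read on the same arrays. Of 14 compared, out of 17 with a probe set, 0 were 2-fold apart in WT, where 5.82% of all genes were higher and 4.96% lower. In KO 3 were higher, against 10.8% of all genes. These were Fpr2, a receptor of serum amyloid A (1.80), Cd14, which takes lipopolysaccharide from LBP (1.36), and Tgfbr2 (1.16). Fpr2 had values of 3.16 on the untreated WT array, 4.73 on the untreated KO array, 3.61 on the WT DSS array and 6.53 on the KO DSS array, and was thus higher in KO in each treatment, by 1.57 and 2.92. Tlr4 and Ly96, which sense lipopolysaccharide with CD14, were higher in KO by 0.65 and 0.53 and lower in WT by -0.10 and -0.28. The lipocalin-2 receptor gene Slc22a17 differed by -0.12 in WT and -0.04 in KO, and endoglin, Eng, a partner of LRG1, by 0.27 and 0.08. The haptoglobin receptor gene Cd163 lay between 1.68 and 3.26 and was not compared. The medians were 0.28 in WT and 0.58 in KO.

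**Figure D4:**
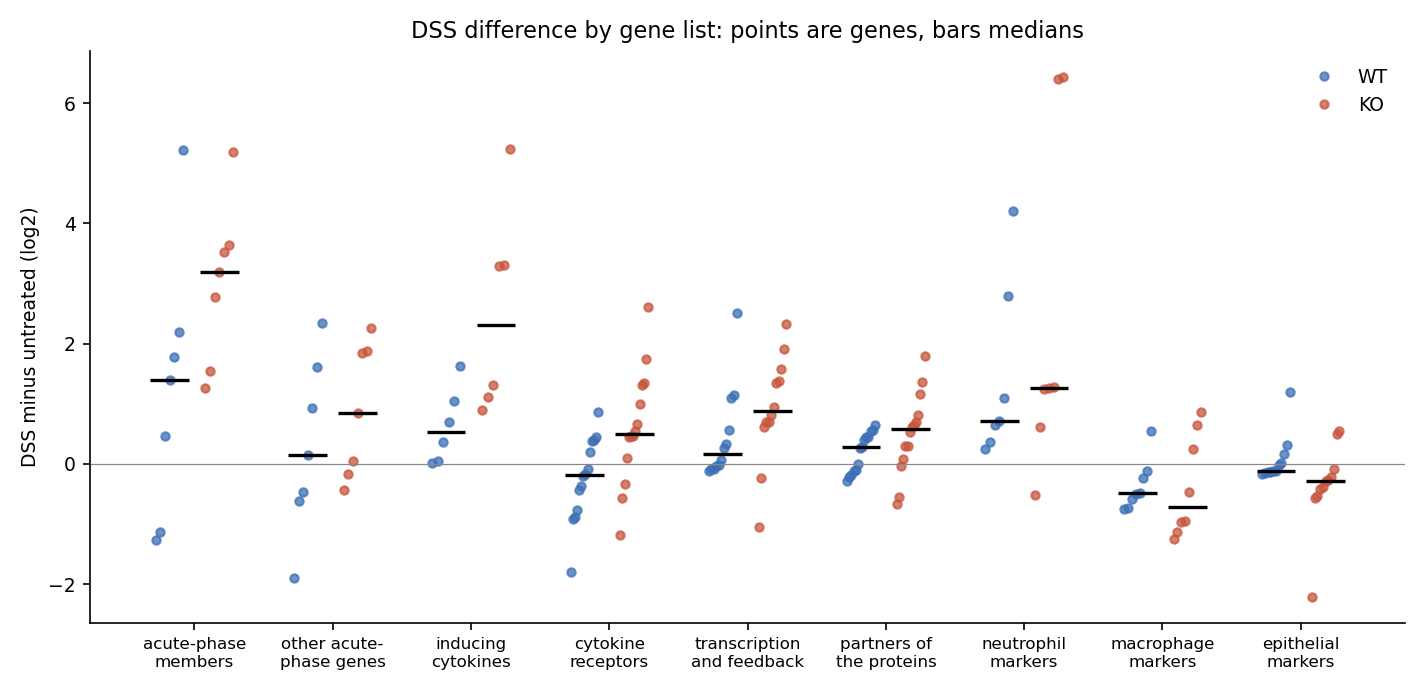
DSS minus untreated log2 difference (vertical axis) of each compared gene in the acute-phase group and in 8 related gene lists, WT in blue and KO in red; points are genes and black bars are medians, with no error bars because each difference is 1 array against 1 array. The acute-phase medians lie at 1.39 and 3.19, and the macrophage and epithelial medians lie below zero in both genotypes.

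In limma's test of DSS over both genotypes, 0 members of any of these lists passed after adjustment. Before adjustment, at p under 0.05, 4 of the 7 acute-phase genes were higher (Lrg1, Saa3, Hp and Lbp), as were 3 of 7 other acute-phase genes (Mt1, Mt2 and Serpina3n), 2 of 6 cytokines (Il1b and Lif) and 4 of 12 transcription and feedback genes (Socs3, Cebpb, Bcl3 and Nfkb2). Among receptors Osmr was higher and Il22ra2 lower, and 0 of 14 partners passed. Over all genes, 7.64% were higher and 4.15% lower at that threshold.

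Markers of other cell types that express acute-phase genes were read on the same arrays. Of 11 neutrophil markers with a probe set, 7 were compared. In WT the DSS array was at least 2-fold higher for S100a8, S100a9 and Ltf, against 5.82% of all genes. In KO it was so for S100a8, S100a9, Csf3r, Il1r2 and Mmp8, against 10.8% of all genes. Elane, the remaining marker compared, differed with DSS by 0.24 in WT and -0.52 in KO, and was highest on the untreated KO array, at 3.74. S100a8, a subunit of calprotectin, had values of 1.61 and 1.89 on the untreated WT and KO arrays, 5.81 on the WT DSS array and 8.30 on the KO DSS array. The summed neutrophil level, as log2, was 5.58, 6.03, 7.23 and 9.55 on the untreated WT, untreated KO, WT DSS and KO DSS arrays, in the same order as Saa3, Hp and Lrg1. The sum held the compared genes only, so Camp, Ngp, Cxcr2 and Mpo were left out. S100a8 and S100a9 had entered the compared genes through the DSS arrays, and Mmp8 through the KO DSS array alone. The order of the sum was therefore partly set by the filter. The granule genes Camp and Ngp lay between 2.10 and 2.66 on all arrays, and Cxcr2 and Mpo between 1.42 and 2.70. The part of neutrophils in the Lcn2, Hp, Lrg1 and Saa3 values was not tested.

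Macrophage markers were not higher with DSS as a list. Of 8 compared, 0 were 2-fold higher in either genotype, 0 were 2-fold lower in WT, and C1qa (-1.13) and C1qc (-1.25) were lower in KO, with medians of -0.49 and -0.71. Of all genes, 5.82% were higher and 4.96% lower with DSS in WT, and 10.8% and 6.68% in KO. The adipocyte hormone gene Adipoq had values of 2.50 on the untreated WT array, 4.54 on the untreated KO array, 5.01 on the WT DSS array and 2.14 on the KO DSS array. It was the only one of 4 adipocyte markers compared that was 2-fold apart. Fabp4, another of the 4, was at 6.12, 6.37, 6.64 and 6.90 on the untreated WT, untreated KO, WT DSS and KO DSS arrays. On the same arrays Plin4 was at 4.73, 4.43, 4.49 and 4.59, and Retn at 3.92, 4.61, 4.68 and 4.14. Fabp4 was highest where Saa3 was highest, and Adipoq, Plin4 and Retn were not. The part of adipocytes in the Saa3 values was not tested. Of 8 hepatocyte markers, 6 lay at or below the median on every array, with albumin, Alb, between 2.25 and 2.55. The other 2 lay above the median, Hrg between 3.68 and 4.36 and Tat between 6.20 and 6.77. Of these 2, 0 were 2-fold apart with DSS, against the shares of all genes given above. Among 11 epithelial markers, Cdx2 was 2-fold apart, higher by 1.19 in WT and lower by -2.21 in KO, and the medians were -0.11 and -0.28.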

How the data were processed

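The authors' deposited table held log2 values for 45101 probe sets on 4 arrays. The log base was inferred, since the top value of 13.23 as a natural log is 556821, above the 65535 of a 16-bit scanner. Summarization and normalization are not given in the sources used here. Per the labels' protocols, RNA was extracted with Trizol and labelled with biotin. Array medians lay between 3.42 and 3.46, and values were used as deposited.

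Probe sets with 1 symbol in the platform annotation (34945) were named by gene number through RefSeq (34741 matched). Those above their array's median on at least 1 array were kept, and a gene was its brightest kept probe set. Calls within a pair of arrays were 2-fold differences, with no test. Tests over the 4 arrays used limma 3.58.1 in R 4.3.3 (lmFit, eBayes with intensity trend, two-sided, Benjamini-Hochberg over 12189 genes, threshold 0.05). The code was tested on simulated data, and Python 3.11.15 was used for the rest. Members and lists were chosen with earlier results of these data known. Genes were named by this rule: the 7 members, the 3 nearest genes of each, up to 4 members of each list by mean DSS difference, all genes in a count of 5 or fewer, and single members a role needs. Epcam, Hoxb13, Fabp2, S100a8 and Adipoq, and the dim genes listed, were named as examples after their values were seen. The comparison with the untreated array of the other genotype was also added after the data were seen.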

Additional observations from a re-analysis of the deposited data

Results flagged for a closer look

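Saa1 and Saa2 differed with DSS in opposite directions in the genotypes. Saa1 was at -1.26 in WT and 1.54 in KO, and Saa2 at -1.14 in WT and 1.26 in KO. With 1 array in each group the difference was not tested.

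For 4 of the 7 genes the KO minus WT difference turned from negative without DSS to positive with DSS, again untested. It was -1.90 and 0.90 for Saa1, -1.55 and 0.85 for Saa2, -0.78 and 0.60 for Lbp, and -0.36 and 2.82 for Lcn2. Saa1 and Saa2 may be a shared signal.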

How the results depend on the processing

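The precision is limited by 1 array per group. Quantile normalization, median centring, no filter, a 75th percentile filter, the mean over probe sets, and dropping _s_at and _x_at probe sets kept the direction of the member differences within pairs of arrays, and the side of the 2-fold threshold in 204 of 205 values of these differences and the excesses, all but the excess of Lbp. Much of this was fixed in advance, because the filter settings left the member values as they were. The mean over probe sets could alter only Saa1 and Lbp. Without the _s_at and _x_at probe sets, Saa2 was not compared, and the members at least 2-fold lower numbered 1 in place of 2 both for DSS in WT and for KO against WT without DSS. By construction there was 1 gene fewer. Against the untreated array of the other genotype, 0 members were at least 2-fold lower with DSS in WT. There the DSS difference reversed to -0.36 (Saa1) and -0.29 (Saa2) in KO and to 0.64 and 0.41 in WT. Limma's adjusted p was under 0.05 for 1 member, Lrg1, after quantile normalization (0.0347) and without the covariate (0.0336), in place of 0. The cause was not tested. Over both genotypes or treatments, the sign did turn: the DSS difference of Saa2, 0.06, was -0.0062 after quantile normalization, and the KO minus WT difference of Lbp, -0.09, was 0.0575 with the mean over probe sets. When each array was left out in turn, without the covariate, the members with an adjusted p under 0.05 numbered 0 for either test, and the DSS difference of Saa1 lay between -0.81 and 1.09. That of Saa3, 2.86, was 1.255 without the KO DSS array and 4.465 without the WT DSS array. For Lcn2, 2.05 became 0.64 and 3.46, and for Hp, 2.48 became 1.465 and 3.495, without the same arrays. The arrays left in each such fit were unbalanced, so its value mixes the DSS and the genotype difference. No paired analysis was possible because each group has 1 array and the labels carry no replicate numbers.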
